A study of Mus musculus with 2 samples.

Results

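The cell cycle genes described here are 40 transcripts that mark dividing cells, split by phase into 17 genes of DNA replication, 21 genes of mitosis and 2 genes expressed broadly through the cycle, Stmn1 and Hmgb2. The members were taken by name from a list chosen with earlier results of these data known. All 40 are among the 31017 gene symbols of the deposited count table. The table comes from droplet single-cell RNA sequencing of mouse spleen. The labels name 2 samples, 1 titled as WAS (the protocols call these mice WAS-KO) and 1 titled as WT, both from animals 6 to 8 weeks old and both carrying the disease name, Wiskott-Aldrich Syndrome, as their mouse model. The labels do not give the strain, the number of animals per sample or how the knockout was made. Barcodes in the table carry 1 common suffix, so no barcode could be tied to either genotype, and the 2 samples were treated as 1 pooled sample. Genotypes were therefore not compared, and with 1 pooled sample no difference between cell types could be set against a spread over replicates. The values are unique molecular identifiers (UMIs), each standing for 1 captured transcript, and levels are UMIs per 1000000 UMIs (CPM) of the cells named. Intervals are 95% exact intervals (Poisson for levels, conditional binomial for ratios, Clopper-Pearson for shares) and cover counting error only.

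Cells copy their genome in S phase and separate the copies in mitosis, and different sets of genes serve the 2 steps. E2F transcription factors switch on genes for helicase loading, replication forks and nucleotide supply as cells leave G1. Later the MuvB complex, together with B-MYB and FOXM1, drives genes for cyclin B, spindle motors and the anaphase machinery through an element called the cell cycle genes homology region (CHR), often beside CCAAT boxes. The mouse spleen keeps making blood cells after birth, so it holds dividing erythroblasts and granulocyte precursors beside lymphocytes that are mostly at rest. Mature neutrophils and late erythroblasts no longer divide.

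After barcodes with fewer than 200 genes or more than 10% mitochondrial UMIs were removed, 6588 of 7524 barcodes remained, with 44751473 UMIs and a median of 5339 UMIs per barcode. Cell types were gated on raw marker UMIs: at least 3 UMIs from at least 2 markers of a lineage and at least 80% of all marker UMIs in it. The gates held 4454 lymphoid, 411 erythroid, 192 neutrophil, 100 monocyte and 337 macrophage cells. In the 4 myeloid and erythroid gates the gate's own marker list had the highest summed level, from 4878 CPM (erythroid) to 103394 CPM (neutrophil), with no own marker at 0. In the lymphoid gate the B cell markers summed to 5973 CPM and the 11 erythroid markers to 15.2 CPM. Median depth was 5533 UMIs in the lymphoid gate and between 11603 and 12066.5 in the erythroid, neutrophil and monocyte gates, but only 770 in the macrophage gate. Haemoglobin transcripts made up a median of 89.4% of the UMIs of an erythroid cell, which lowers the level of every other gene there. The median log2 ratio of all 9893 genes compared between the erythroid and lymphoid gates was -2.13, and it was -0.44 without haemoglobin and immunoglobulin UMIs and -0.14 with median-of-ratios size factors. In the neutrophil gate the median was -1.07 and became -0.13 with size factors. Erythroid and neutrophil ratios are therefore read relative to these medians.

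The phase labels were checked member by member against the list that led in each cell, which is not a phase call. Cells with at least 5 UMIs of the other phase members were divided into those where the other mitotic members held more UMIs and those where the other replication members did, and the level of the left-out gene was compared between them. Over all kept cells, on totals that include haemoglobin, 21 of 21 mitotic members were higher in the mitotic-leaning cells. Log2 ratios ran from 1.46 (1.38 to 1.55) for Top2a, the topoisomerase that untangles sister DNA, to 4.38 (4.18 to 4.58) for Ube2c, the ubiquitin-conjugating enzyme of the anaphase-promoting complex. Of the replication members, 12 of 17 were higher in the replication-leaning cells, with the helicase subunit Mcm3 at -1.30 (-1.46 to -1.14) and Mcm6 at -1.25 (-1.41 to -1.09). The other 5 had ratios above 0, for Rrm1 with an interval that includes 0, and all serve nucleotide supply or bind the replication clamp. They were Pclaf, the PCNA-associated factor, at 0.91 (0.81 to 1.01), the ribonucleotide reductase subunit Rrm2 at 0.78 (0.64 to 0.91), thymidine kinase Tk1 at 0.42 (0.17 to 0.67), thymidylate synthase Tyms at 0.28 (0.09 to 0.47) and the other reductase subunit Rrm1 at 0.08 (-0.06 to 0.23). Hmgb2, a chromatin-bending protein, was at 1.08 (1.04 to 1.12), and Stmn1, which destabilises microtubules, was at 0.46 (0.38 to 0.53). Over 7 alternatives, 17 to 21 mitotic members were higher in mitotic-leaning cells, and 12 to 15 replication members in replication-leaning cells.

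Within the lymphoid gate alone the order was similar but every ratio sat higher. For Hmgb2, 584 lymphoid cells leaned to replication and 157 to mitosis. Unthinned, 52.9% of lymphoid cells had at least 2 UMIs of replication members, and 16.2% of mitotic members. The replication-leaning cells were not shown to be in S phase, and resting cells among them were not separated. Ccnb1, the mitotic cyclin, reached 4.79 (4.13 to 5.53), while Mcm2 was lowest at -0.85 (-1.21 to -0.51). Pclaf stood at 2.0 (1.87 to 2.14) and Rrm2 at 1.61 (1.39 to 1.83) in lymphoid cells. In erythroid cells, on the scale without haemoglobin, Pclaf was instead at -0.46 (-0.83 to -0.08) and Rrm2 at 0.17 (-0.08 to 0.43). Pclaf thus stood on different sides of 0 in the lymphoid and erythroid gates, with intervals that do not overlap.

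**Figure D1:**
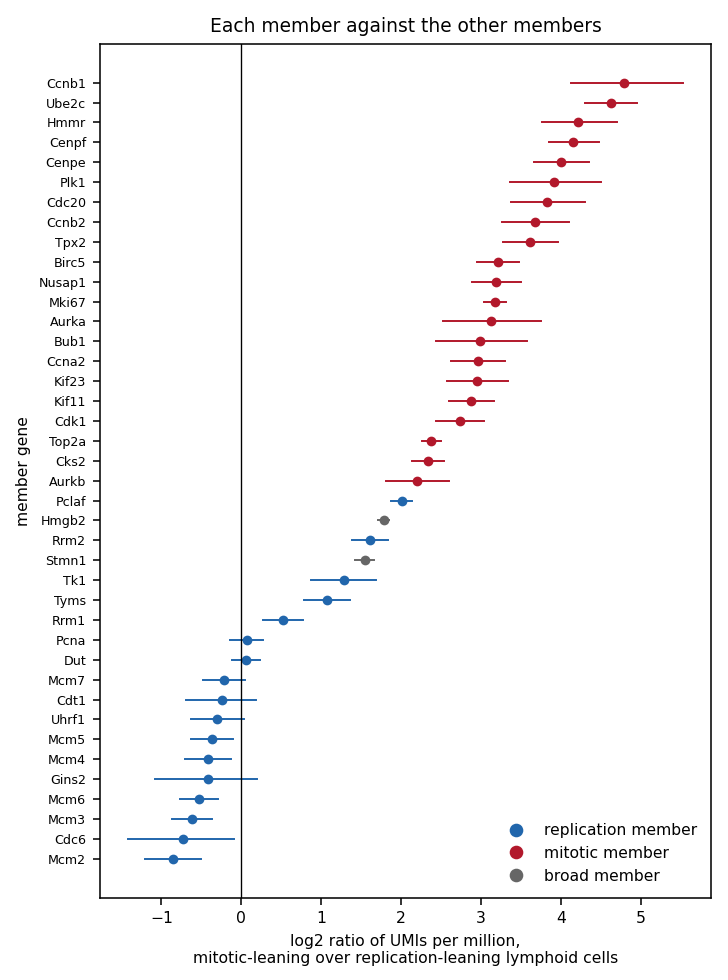
Log2 ratio of each member's UMIs per 1000000 between mitotic-leaning and replication-leaning lymphoid cells (x axis), with 95% intervals as lines; the gene plotted is left out when cells are divided. The 21 mitotic members lie at 2.20 or above, and Pclaf, at 2.0, is the replication member nearest to them.

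Promoter windows from RefSeq (GRCm38.p6, 250 bases before to 50 after a transcript start) were found for 34 of the 40 members. They were searched on both strands for E2F words (TTTCCCGC, TTTCGCGC, TTTGCCGC and TTTGGCGC), the CHR words TTTGAA and TTCGAA, and CCAAT. The 4 windows below show a replication gene with E2F words, 2 mitotic genes with a CHR beside CCAAT boxes, and Nusap1, a spindle protein whose window holds none of these words. Each is printed 5′ to 3′ along the gene, and capitals mark the words found, read on either strand; an overlap of words gives 1 run of capitals. Mcm6 lies at chr1:128359656-128359955 (minus strand), Ccnb2 at chr9:70421505-70421804 (minus), Ube2c at chr2:164769679-164769978 (plus) and Nusap1 at chr2:119618048-119618347 (plus).
Mcm6: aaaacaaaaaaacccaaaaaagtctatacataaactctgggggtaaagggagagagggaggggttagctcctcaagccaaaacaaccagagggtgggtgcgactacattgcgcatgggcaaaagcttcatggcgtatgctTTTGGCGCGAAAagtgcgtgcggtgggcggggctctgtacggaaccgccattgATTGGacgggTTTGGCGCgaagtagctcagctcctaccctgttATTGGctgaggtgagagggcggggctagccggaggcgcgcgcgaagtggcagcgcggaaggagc
Ccnb2: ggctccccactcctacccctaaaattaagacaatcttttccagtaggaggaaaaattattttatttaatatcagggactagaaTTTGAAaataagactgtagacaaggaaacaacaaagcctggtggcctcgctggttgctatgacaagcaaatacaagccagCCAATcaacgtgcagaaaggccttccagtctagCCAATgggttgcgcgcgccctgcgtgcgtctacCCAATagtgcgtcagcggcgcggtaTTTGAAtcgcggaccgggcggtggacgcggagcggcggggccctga
Ube2c: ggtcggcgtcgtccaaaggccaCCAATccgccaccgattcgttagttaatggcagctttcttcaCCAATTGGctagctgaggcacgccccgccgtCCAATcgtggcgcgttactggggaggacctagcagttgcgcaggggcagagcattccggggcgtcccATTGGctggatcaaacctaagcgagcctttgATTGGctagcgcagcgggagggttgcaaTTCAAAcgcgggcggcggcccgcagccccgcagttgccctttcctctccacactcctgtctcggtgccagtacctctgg
Nusap1: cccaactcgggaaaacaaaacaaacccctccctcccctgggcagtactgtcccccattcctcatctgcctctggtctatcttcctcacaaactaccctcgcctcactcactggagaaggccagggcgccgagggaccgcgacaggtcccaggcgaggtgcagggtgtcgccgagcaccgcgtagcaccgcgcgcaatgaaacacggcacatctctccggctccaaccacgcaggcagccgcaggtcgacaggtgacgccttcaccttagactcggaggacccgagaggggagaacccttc

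In the Mcm6 window the 3 E2F words begin at -110, -106 and -47, counted from the transcript start. The Ccnb2 window has CHR words at -167 and 4, with 3 CCAAT boxes between them at -87, -54 and -21. Ube2c has 1 CHR word on the opposite strand, at -29, and 6 CCAAT boxes between -228 and -57. Across the members with a window, an E2F word occurred in 8 of 15 replication genes (53.3%) and in 1 of 18 mitotic genes (5.56%, Cdk1), against 2.60% of all 27025 genes with a window. A CHR word occurred in 13 of 18 mitotic genes (72.2%) and in 2 of 15 replication genes (13.3%, Mcm2 and Mcm7), against 21.7% of all genes. In the last 100 bases of the window, which span the start, CHR words were found in 12 of 18 mitotic genes and in 0 of 15 replication genes, against 6.12% of all genes. CCAAT was common to both, in 16 of 18 mitotic and 10 of 15 replication genes, against 41.1% of all genes. The same split held in direction among genes of the same roles that are not members: a CHR word stood in 29 of 39 other mitotic genes (74.4%) and 8 of 30 other replication genes (26.7%). These counts describe letters in the windows, not bound sites.

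Between cell types, mitotic transcripts covered a wider range of levels than replication transcripts. Summed over the 21 mitotic members, the level was 501 CPM (493 to 509) in the lymphoid gate, 2042 (2003 to 2082) in the erythroid gate, 2007 (1950 to 2065) in the neutrophil gate, 1381 (1314 to 1450) in the monocyte gate and 493 (422 to 572) in the macrophage gate. These totals include haemoglobin, which takes most erythroid UMIs. Erythroid and neutrophil levels overlap within counting error on these totals, and so do lymphoid and macrophage levels. Per 1000000 UMIs without haemoglobin, a scale added after seeing the data, mitotic members summed to 6870 CPM (6739 to 7003) in erythroid and 2017 CPM (1960 to 2076) in neutrophil cells. Summed over the 17 replication members, the level was 578 CPM (569 to 586) in lymphoid, 1018 (991 to 1046) in erythroid, 896 (858 to 935) in neutrophil, 424 (387 to 462) in monocyte and 561 (486 to 646) in macrophage cells. Without haemoglobin, replication members summed to 3426 CPM (3333 to 3520) in erythroid and 901 CPM (863 to 940) in neutrophil cells. Of the UMIs of both lists, mitotic members took 46.4% (45.9 to 47.0) in lymphoid, 66.7% (66.0 to 67.5) in erythroid, 69.1% (68.0 to 70.2) in neutrophil, 76.5% (74.7 to 78.3) in monocyte and 46.7% (41.5 to 52.0) in macrophage cells. This share does not depend on how many other transcripts a gate holds, but it does depend on the most active cells: without the 5% of cells with the most phase UMIs it was 24.2% in lymphoid, 71.5% in erythroid, 66.6% in neutrophil, 52.7% in monocyte and 31.8% in macrophage cells. In the pooled cells of a gate, fewer cells carrying a transcript and less of it per cell give the same level.

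**Figure D2:**
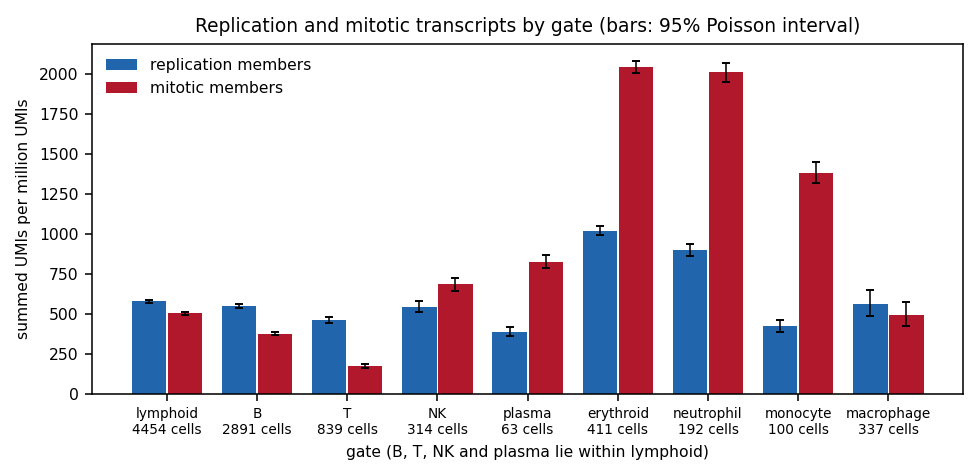
Summed UMIs per 1000000 of the 17 replication members (blue) and the 21 mitotic members (red) in the pooled cells of each gate, on totals that include haemoglobin, with 95% Poisson intervals. Mitotic bars reach 2042 in erythroid and 2007 in neutrophil cells against 501 in lymphoid cells. Among the lymphoid, erythroid, neutrophil, monocyte and macrophage gates, replication bars stay between 424 and 1018.

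Replication members were followed by role. Of the 6 subunits of the MCM helicase, which opens DNA ahead of the fork, Mcm6 measured 49.8 CPM in lymphoid, 62.5 in erythroid, 43.4 in neutrophil, 21.3 in monocyte and 22.9 in macrophage cells. In the erythroid gate the log2 ratios of the 6 subunits to lymphoid cells lay between -0.11 for Mcm4 and 0.98 for Mcm7. Cdc6 and Cdt1 both load this helicase, yet their patterns differed. Cdc6 measured 4.69 CPM in lymphoid and 28.9 CPM in erythroid cells, the highest replication ratio there at 2.62 (2.28 to 2.97). Cdt1 measured 27.0 CPM in lymphoid and 25.4 CPM in erythroid cells, a ratio of -0.09 (-0.37 to 0.18). Both ribonucleotide reductase subunits, which make deoxynucleotides, were higher in the erythroid gate. Rrm2 measured 24.7 CPM in lymphoid, 119 in erythroid, 91.1 in neutrophil, 17.9 in monocyte and 48.7 in macrophage cells, and Rrm1 measured 35.1, 92.6, 65.2, 36.7 and 45.8 CPM in the same order. Pcna, the sliding clamp, stayed between 51.5 CPM in neutrophil and 88.8 CPM in macrophage cells, where it rests on 31 UMIs.

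Against the lymphoid gate, 8 of 17 replication members were at least 2-fold higher in erythroid cells, where 4.38% of all genes compared were, and 0 were 2-fold lower, where 79.8% of all genes were. The 4 highest were Cdc6, Rrm2 (2.27), Tk1 (1.60) and Rrm1 (1.40), and the 4 lowest were Mcm6 (0.33), Cdt1 (-0.09), Mcm4 (-0.11) and Pclaf (-0.50). With haemoglobin and immunoglobulin UMIs left out of the totals, or with size factors, 17 of 17 were at least 2-fold higher and no member was below lymphoid cells. The share of all genes past 2-fold was not counted on either scaling, so these counts have no background beside them. In the neutrophil gate 5 of 17 were at least 2-fold higher, against 8.61% of all genes, and 0 were 2-fold lower, against 52.9%. Rrm2 (1.88), Pclaf (1.74), Cdc6 (1.58) and Tyms (1.37) were highest, and Mcm6 (-0.20), Mcm4 (-0.24), Pcna (-0.28) and Cdt1 (-0.82) were lowest. Those 4 turned positive with size factors, under which 11 of 17 were 2-fold higher, again without a share of all genes to set beside it.

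Most mitotic members were at least 2-fold higher in both gates. In neutrophil cells 21 of 21 were at least 2-fold above lymphoid cells, with a median log2 ratio of 2.10 against -1.07 for all genes. In erythroid cells 18 of 21 were, with a median of 2.02 against -2.13. The other 3, Cdc20 (0.87), Aurkb (0.76) and Kif23 (0.75), were higher by less than 2-fold and passed 2-fold under both other scalings. Limited to barcodes with at most 5% mitochondrial UMIs, the erythroid gate had 10 of 21 mitotic and 3 of 17 replication members at least 2-fold higher.

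Among the mitotic kinases and cyclins, Cdk1, the engine of mitotic entry, measured 16.5 CPM in lymphoid, 66.8 in erythroid, 87.7 in neutrophil, 46.1 in monocyte and 25.8 in macrophage cells. Its partner Ccnb1 measured 8.42, 48.6, 31.9, 32.4 and 8.59 CPM in the same order. Aurka, the centrosome kinase, lay at 25.8 CPM in erythroid, 26.4 in neutrophil and 26.5 in monocyte cells, values within counting error of each other, against 5.52 in lymphoid cells. Ube2c measured 30.8 CPM in lymphoid, 380 in erythroid, 214 in neutrophil, 149 in monocyte and 65.9 in macrophage cells. Its log2 ratio to lymphoid cells, 3.62 (3.51 to 3.74) in the erythroid gate, 2.80 (2.64 to 2.95) in the neutrophil gate and 2.28 (2.04 to 2.51) in the monocyte gate, was the highest of the mitotic list in each. Among motors, Kif11, which separates the spindle poles, measured 19.3 CPM in lymphoid, 52.3 in erythroid and 82.6 in neutrophil cells. Kif23, a motor of the late spindle midzone and cytokinesis, measured 14.9, 25.2 and 57.1 CPM. After Ube2c, the highest erythroid ratios were Ccnb1 (2.53), Nusap1 (2.51) and Hmmr (2.31), and the lowest beside the 3 named above was Top2a (1.10). In neutrophils Bub1 (2.47), Cdk1 (2.41) and Nusap1 (2.31) followed Ube2c, and Cdc20 (1.62), Cenpf (1.61), Cenpe (1.53) and Aurkb (1.48) were lowest. Hmgb2 was at 423 CPM in lymphoid, 560 in erythroid and 2318 in neutrophil cells, and Stmn1 at 92.1, 164 and 362 CPM. Which gate held a member's highest level depended on haemoglobin. On totals that include it, 9 of the 21 mitotic members were highest in the erythroid gate, 11 in the neutrophil gate and 1, Aurka, in the monocyte gate, and 12 of the 17 replication members in the erythroid gate. On totals without it, 21 of 21 mitotic and 16 of 17 replication members were highest in the erythroid gate, and Pclaf in the neutrophil gate. The replication part rested on the erythroid cells with less haemoglobin. On the same scale the 351 cells with at least 50% haemoglobin had 644 CPM of replication members, against 901 CPM in neutrophils. Their mitotic members were at 7406 CPM, against 2017 CPM in neutrophils.

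**Figure D3:**
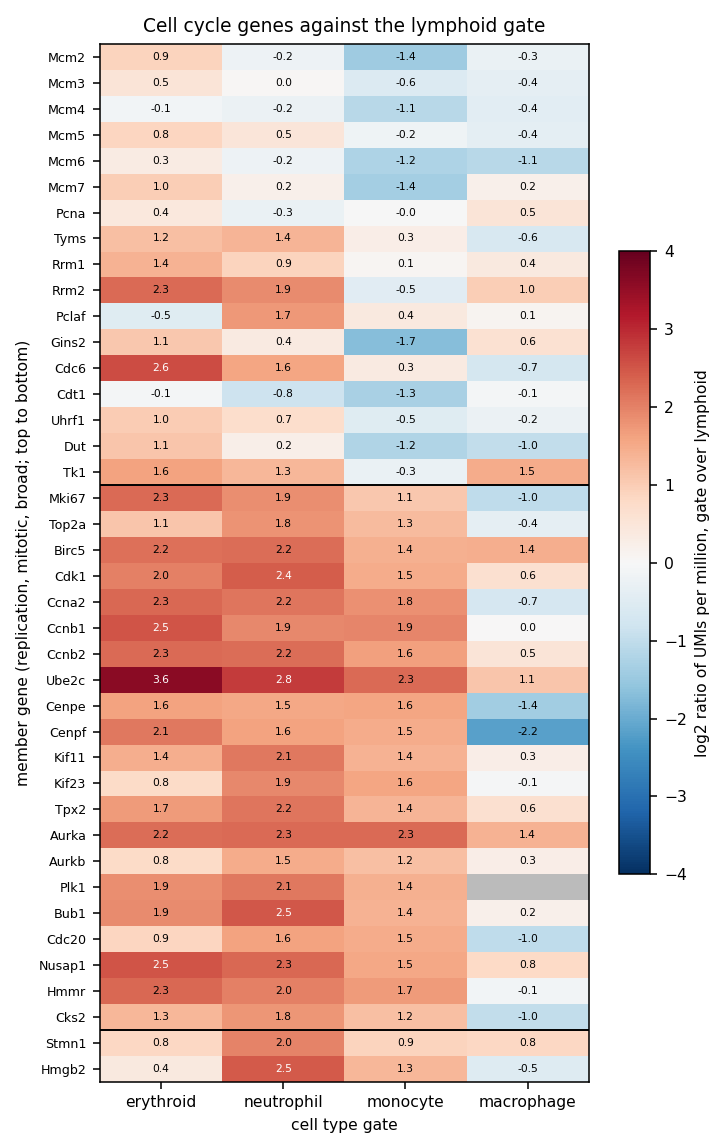
Log2 ratio of each member's UMIs per 1000000 to the lymphoid gate (colour and printed value) in the erythroid, neutrophil, monocyte and macrophage gates; lines part replication, mitotic and broad members, and grey marks Plk1, listed at 0 in macrophages. The mitotic block is higher than the replication block in the first 3 columns, from Ube2c at 3.62 in erythroid cells down, and mixed in macrophages.

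In the monocyte gate the 2 lists went opposite ways. All 21 mitotic members were at least 2-fold higher than in lymphoid cells, where 14.2% of all genes compared were. The highest were Ube2c, Aurka (2.26), Ccnb1 (1.95) and Ccna2 (1.81), and the lowest Top2a (1.27), Cks2 (1.21), Aurkb (1.20) and Mki67 (1.09). No replication member was 2-fold higher, and 7 of 17 were 2-fold lower, where 22.3% of all genes were. The lowest were Cdt1 (-1.28), Mcm7 (-1.36), Mcm2 (-1.43) and Gins2 (-1.71, on 2 monocyte UMIs), and the highest Pclaf (0.41), Cdc6 (0.35), Tyms (0.25) and Rrm1 (0.06). The mitotic part of this result rested on 5 of the 100 cells, which held 89.7% of the mitotic and 70.0% of the replication UMIs. Those 5 cells had 10112 CPM of mitotic and 2418 CPM of replication transcripts, and the other 95 had 162 and 145 CPM. Lymphoid cells without their own most active 5% had 288 CPM of replication transcripts, so the lower replication level in monocytes did not rest on the 5 cells. The 15 neutrophil markers summed to 648 CPM in the 5 cells and 406 CPM in the other 95. Prtn3, a protease of granulocyte and monocyte precursors, was at 300 against 33.1 CPM, more than this whole difference. The other neutrophil markers together were thus not higher in the 5 cells, and Mpo was at 0 in both. The 12 monocyte markers were at 6523 CPM in the 5 cells and 7013 CPM in the rest. Of these markers, Csf1r (111 against 670 CPM) and Ccr2 (850 against 1180) were lower in the 5 cells. F13a1 (1707 against 921 CPM) and Fn1 (2118 against 1029) were higher. The part of these markers in the result was not tested. When each gate lost the 5% of its cells with the most phase UMIs, 2 of 21 mitotic members stayed at least 2-fold higher in monocytes, 12 of 21 in erythroid cells and 16 of 21 in neutrophils. A stricter gate of 6 marker UMIs and 90% kept 22 monocytes, with 0 of 21 mitotic members higher and 203 CPM of mitotic transcripts. Replication transcripts were then at 614 CPM in monocytes and 558 CPM in lymphoid cells, so their lower level was not kept there.

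Macrophage values were thin. The gate held 349080 UMIs in all, and 69.4% of its cells had no UMI of either list. Of 21 mitotic members 3 were at least 2-fold higher than in lymphoid cells, Birc5 (1.44), Aurka (1.38, on 5 UMIs) and Ube2c (1.10), where 13.9% of all genes were, and 5 were counted as 2-fold lower, where 30.8% were. Of these Mki67 (-1.01) and Cenpf (-2.17) had intervals below 0, while those of Cdc20 (-1.02) and Cenpe (-1.38) include 0. Plk1, the fifth, is listed at 0, which allows up to 8.59 CPM against 7.72 CPM in lymphoid cells, so no decrease was measured for it. Of the replication members Tk1 (1.48, 9 UMIs) was higher and Mcm6 (-1.12, 8 UMIs) lower. The 17 cells with the most phase UMIs had 1059 CPM of the 11 erythroid markers against 60.5 CPM in the other 320, and 17147 against 23540 CPM of the macrophage markers. The part of the erythroid markers was not tested.

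Cell by cell, the gates differed in which list was seen alone. Each cell was thinned to 1000 UMIs and counted as positive for a list with at least 2 of its UMIs, which is not a phase call. In the lymphoid gate 5.49% of 4427 cells (4.84 to 6.20) were positive for replication alone, 1.72% (1.35 to 2.14) for both and 1.33% (1.02 to 1.72) for mitosis alone. The 403 erythroid cells gave 1.74% (0.70 to 3.55) for replication alone, 10.4% (7.61 to 13.8) for both and 10.2% (7.40 to 13.5) for mitosis alone. Of 189 neutrophil cells 5.29% (2.57 to 9.51) were positive for replication alone, 8.47% (4.92 to 13.4) for both and 13.2% (8.75 to 18.9) for mitosis alone. Replication alone was more frequent than mitosis alone in lymphoid cells (243 against 59 cells), and less frequent in neutrophils (10 against 25) and erythroid cells (7 against 41). Of the 41 erythroid cells with mitosis alone, 36 lay in the haemoglobin-rich bin described next. Haemoglobin fills most of the 1000 UMIs kept there, and Ube2c and Nusap1 had 761 and 287 of the 1231 mitotic UMIs outside its 18 cells with the most phase UMIs. Mature neutrophils gave 3.12% (0.38 to 10.8) for replication alone and 7.81% (2.59 to 17.3) for mitosis alone over 64 cells with a median of 2681 UMIs. Kif23 and Cks2 had 32 and 55 of the 118 mitotic UMIs of these cells, so their mitotic share is no background level. Unthinned, 16.2% of lymphoid and 76.9% of erythroid cells were mitotic-positive, at median depths of 5533 and 11603 UMIs. Of 100 monocytes 1 was too shallow for the thinning, and of 337 macrophages 243 were.

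Erythroid cells were ordered by the haemoglobin share of their UMIs, which rises as erythroblasts mature, and levels were taken per 1000000 UMIs without haemoglobin. The 37 cells under 10% haemoglobin had 4105 CPM (3973 to 4241) of replication and 4722 CPM (4580 to 4868) of mitotic transcripts, a mitotic share of 53.5% (52.4 to 54.6). The 23 cells between 10% and 50% had 8238 CPM (7793 to 8702) and 17369 CPM (16720 to 18036), a share of 67.8% (66.4 to 69.3). The 351 cells at 50% or more had 644 CPM (574 to 719) and 7406 CPM (7166 to 7652), a share of 92.0% (91.1 to 92.8). Both lists were therefore highest in the middle bin on this scale, and replication transcripts were lowest in the haemoglobin-rich bin. With haemoglobin in the totals, replication members were at 4063 CPM in the poor and 5704 CPM in the middle bin. At the 5% mitochondrial limit these were 7101 CPM (23 cells) and 5348 CPM (19 cells), the reverse order. Mitotic members were then at 8286 and 13208 CPM. The poor bin held 881752 UMIs without haemoglobin at a median of 4689 per cell, so its deep cells weigh most. Only 10 cells lay within 5 points of the 10% cut and 5 within 5 points of the 50% cut. From the middle to the haemoglobin-poor bin, 0 of 17 mitotic members compared were 2-fold higher in the poor bin and 15 were lower, against 25.9% and 18.1% of 1688 genes. Rrm2 stood at 306 CPM in the poor bin, 1658 in the middle bin and 171 in the rich bin, Pcna at 307, 874 and 45.4 CPM, and Dut, which clears dUTP, at 811, 520 and 33.0 CPM. Mki67, the proliferation antigen of mitotic chromosomes, stood at 823, 4106 and 1285 CPM in the same order.

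Ube2c and Nusap1 did not follow the other members into the haemoglobin-rich cells. Of 15 mitotic members compared between the rich and middle bins, 13 were at least 2-fold lower in the rich bin, where 34.0% of 768 genes compared were, and their log2 ratios ran from -2.80 for Top2a to -1.21 for Cenpf. Ube2c was at 2692 CPM in the rich and 2063 CPM in the middle bin, a log2 ratio of 0.38 (0.21 to 0.56), and Nusap1 at 821 and 720 CPM, a ratio of 0.19 (-0.12 to 0.51). Of 10 mitotic genes compared that are not members, 2, Pttg1 and Cdc25b, were at least 2-fold higher in the rich bin and 8 were lower. Of all genes compared there, 27.3% were higher and 34.0% lower. Ube2c was detected in 262 of the 351 haemoglobin-rich cells (74.6%, 69.8 to 79.1) and Nusap1 in 169 (48.1%, 42.8 to 53.5), at a median of 1082 UMIs without haemoglobin per cell. In mature neutrophils, at a median of 2681 UMIs, each of the 2 genes was in 3.12% of cells, and in lymphoid cells, at 5533 UMIs, Ube2c was in 3.75% and Nusap1 in 4.18%. The next most widespread members were Hmgb2 in 19.4%, Mki67 in 17.4% and Rrm2 in 9.40% of the cells, and the other 35 members were each in under 6%. The 18 haemoglobin-rich cells with the most phase UMIs held 84.1% of the Mki67, 91.1% of the Top2a and 92.1% of the Cenpf UMIs, but 41.7% of the Ube2c and 27.9% of the Nusap1 UMIs. In the other 333 cells Ube2c was still at 1875 CPM and Nusap1 at 707 CPM, while Mki67 was at 244, Cenpf at 41.9 and Top2a at 27.1 CPM.

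By tertiles of the haemoglobin share, with 137 cells each and cuts at 85.9% and 91.2%, the same 2 genes stood apart. Ube2c was in 72.3%, 80.3% and 70.1% of cells from the lowest to the highest tertile and Nusap1 in 57.7%, 47.4% and 42.3%. Mki67 was in 56.2%, 13.1% and 3.65%, and Cenpf in 37.2%, 0.73% and none of the cells. In the highest tertile Ube2c was at 2516 CPM, while all 10 B cell markers together, which summed to 5973 CPM in the lymphoid gate where Ube2c was at 30.8 CPM, were at 631 CPM. The B cell markers track RNA of B cells only, and the source of the Ube2c UMIs in these cells was not tested. Each of the 2 genes overlaps an exon of a gene on the opposite strand, Tnnc2 for Ube2c and Oip5 for Nusap1, and whether counting used the strand is not given. The same holds for Mcm7, Gins2, Tk1, Ccna2, Plk1 and Cdc20, 8 members in all. In the haemoglobin-rich cells Tnnc2 had 0 UMIs and Oip5 had 17 UMIs against 398 for Nusap1. Without Ube2c and Nusap1 the mitotic share of the haemoglobin-rich bin was 85.8%. Unthinned, 5 of the 351 haemoglobin-rich cells (1.42%, 0.46 to 3.29) had at least 2 UMIs of replication members alone, 18 (5.13%, 3.07 to 7.98) of both lists and 243 (69.2%, 64.1 to 74.0) of mitotic members alone.

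**Figure D4:**
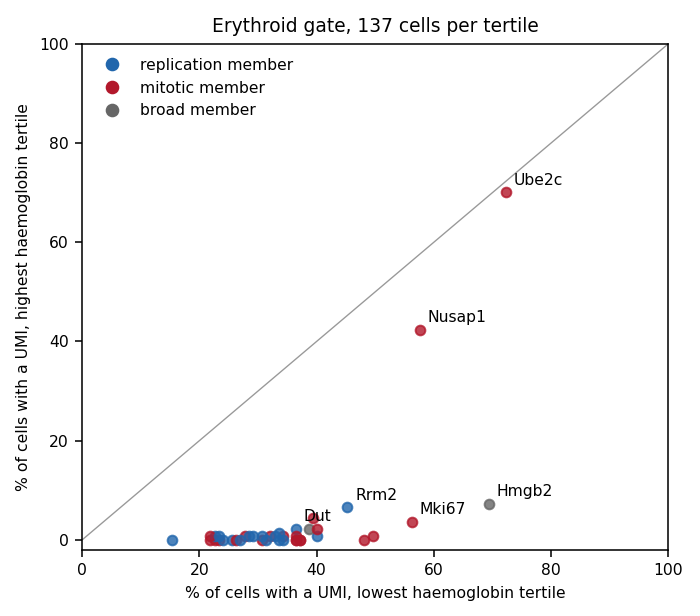
Percent of erythroid cells with at least 1 UMI of each member in the lowest (x axis) and highest (y axis) tertile of the haemoglobin share, 137 cells each; the line marks equal shares. Ube2c (72.3% and 70.1%) and Nusap1 (57.7% and 42.3%) lie near the line, and the other members lie below 8% on the y axis. Shares are not corrected for depth, and the highest tertile holds fewer UMIs without haemoglobin.

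The neutrophil gate was split by granule genes into 128 cells led by precursor granule genes and 64 led by genes of mature neutrophils, with median depths of 15005 and 2681 UMIs. Summed replication members measured 963 CPM (922 to 1006) in precursors and 249 CPM (187 to 324) in mature cells, and mitotic members 2160 CPM (2098 to 2223) and 534 CPM (442 to 639). Of the members with enough UMIs, 8 of 10 replication and 13 of 15 mitotic members were at least 2-fold higher in precursors, where 22.1% of 2235 genes compared were. Of the 55 replication UMIs in mature cells, 76.4% came from 3 cells, and without the 5% of cells with the most phase UMIs in each group the summed log2 ratio of precursors over mature cells moved from 1.95 (1.57 to 2.37) to 3.66 for replication members. A gene passes the minimum of 100 UMIs mostly through the deeper precursors, so these counts describe the members compared and not the lists. Cdk1, Ccnb2, Cenpe, Cenpf, Bub1, Hmmr, Rrm1, Cdt1 and Tk1 had no UMI in mature neutrophils, where 3 UMIs would be 13.6 CPM. Of these, Rrm1 was at 71.9 and Cdk1 at 96.8 CPM in precursors.

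Kif23 and Cks2 ran the other way. Kif23 measured 48.0 CPM in precursors and 145 CPM in mature neutrophils, a log2 ratio of -1.59 (-2.18 to -0.97) for precursors over mature cells, and it was the 1 member 2-fold lower in precursors, where 22.9% of genes compared were. Cks2, the small subunit that binds cyclin-dependent kinases, measured 165 and 249 CPM, a ratio of -0.60 (-1.01 to -0.16). Kif23 was in 25 of 64 mature cells (39.1%, 27.1 to 52.1) and Cks2 in 26 (40.6%, 28.5 to 53.6), with at most 3 and 6 UMIs in any 1 cell, so neither value comes from a few cells. Every other replication or mitotic member was in 6 or fewer of the 64 cells. Kif23 had 32 and Cks2 55 of the 118 mitotic UMIs of mature neutrophils. In lymphoid cells, at a median of 5533 UMIs, Kif23 was in 5.19% (4.55 to 5.88) and Cks2 in 18.8% (17.6 to 19.9) of cells, both below their share in the shallower mature neutrophils. Hmgb2 remained in 92.2% of mature cells at 1095 CPM, against 98.4% and 2446 CPM in precursors, while Stmn1 was in 4.69%, against 39.8%.

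**Figure D5:**
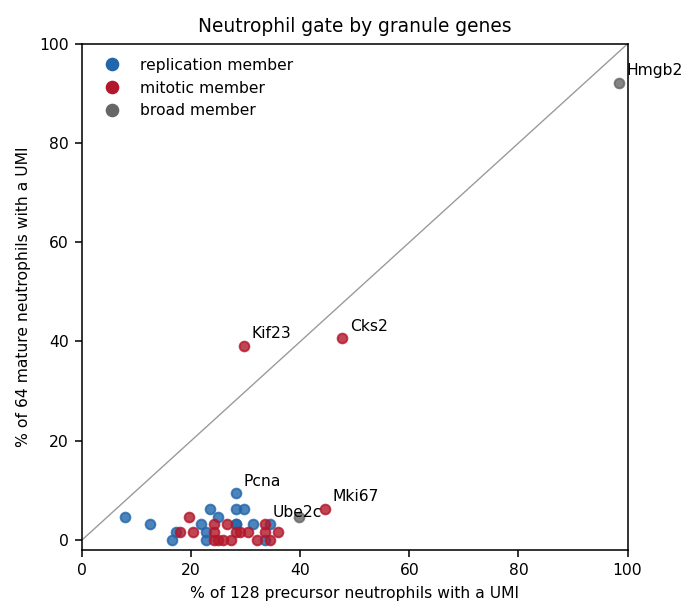
Percent of neutrophil-gate cells with at least 1 UMI of each member among 128 precursors (x axis) and 64 mature cells (y axis); the line marks equal shares. Kif23 (39.1% of mature cells) lies above the line and Cks2 (40.6%) and Hmgb2 (92.2%) just below it, while all other members lie under 10% of mature cells.

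Within the lymphoid gate, 2891 cells passed as B, 839 as T, 314 as NK and 63 as plasma cells, and 347 had markers of more than 1 subset or too few of any, 59 of them called doublets. Replication members summed to 547 CPM (536 to 558) in B, 459 (442 to 476) in T, 544 (508 to 581) in NK and 387 (359 to 416) in plasma cells. Mitotic members varied more, with 375 CPM (366 to 385) in B, 171 (161 to 182) in T, 682 (642 to 724) in NK and 824 (783 to 866) in plasma cells. The mitotic share was 27.2% (25.8 to 28.7) in T, 40.7% (40.0 to 41.5) in B, 55.6% (53.4 to 57.9) in NK and 68.1% (66.1 to 70.0) in plasma cells. Without the 5% of cells with the most phase UMIs in each subset the shares were 17.3% in T, 24.9% in B, 26.4% in NK and 48.3% in plasma cells. T cell Mcm4, at 44.7 CPM against 33.6 in B cells, and Mcm6, at 51.8 against 39.7, were above B cells by 0.41 (0.20 to 0.63) and 0.38 (0.18 to 0.58) on the log2 scale. Of 16 replication members compared, 0 were at least 2-fold higher in T than in B cells, where 7.50% of 9170 genes were, and 3 were lower, where 11.7% were, with a median log2 ratio of -0.37 against -0.07 for all genes. The 3 were Uhrf1 (-1.19), Pclaf (-1.40, at 24.1 against 63.5 CPM) and Tk1 (-1.51). Cenpf, a kinetochore protein, was at 3.54 against 20.9 CPM and Aurkb, the kinase of the chromosomal passenger complex, at 1.86 against 12.5 CPM. Of 18 mitotic members compared, 10 were at least 2-fold lower in T than in B cells and 0 higher. Kif23 (-0.15), Cdc20 (-0.60), Cdk1 (-0.60) and Cks2 (-0.73) differed least.

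T cell replication UMIs were spread over cells, as 746 of 839 T cells had at least 1, and the 42 cells with the most phase UMIs held 37.9% of them but 65.2% of the mitotic UMIs. In NK cells 8 of 18 mitotic members were at least 2-fold above B cells, where 11.6% of genes were, led by Hmmr (1.38), Ube2c (1.33), Ccna2 (1.30) and Tpx2 (1.27). These 4 ratios rested on few of the 314 NK cells, with Hmmr in 5, Ube2c in 8, Ccna2 in 8 and Tpx2 in 10. The share of cells was 1.59% in NK against 1.31% in B cells for Hmmr and 2.55% against 3.49% for Ube2c. It was 2.55% against 2.32% for Ccna2 and 3.18% against 2.32% for Tpx2. Hmgb2 was also higher in NK cells, at 876 against 327 CPM. Plasma cells are filled with immunoglobulin transcripts, and the median log2 ratio of all genes to B cells was -1.25. Against it, 10 of 18 mitotic members were at least 2-fold higher, where 4.64% of genes were, led by Ube2c (2.13), Mki67 (2.08), Ccnb1 (1.94) and Ccnb2 (1.85). Of 16 replication members compared, 6 were 2-fold lower in plasma than in B cells, where 60.9% of genes were, and 1, Rrm2 (1.48), was higher. In plasma cells 3 of the 63 cells held 77.7% of the mitotic UMIs, and in the other 60 the mitotic members stood at 202 CPM. Mki67 was in 36 of the 63 plasma cells and in 33 of these 60, where it stood at 98.0 CPM, against 55.8 CPM over all B cells, and the 3 cells held 62.2% of its UMIs.

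Other genes of the cell cycle were counted in the same way. Of 44 other mitotic genes compared, 27 were at least 2-fold higher in erythroid than in lymphoid cells and 2 lower, Bub3 (-1.25) and Cep55 (-2.53). Of all genes compared there, 4.38% were higher and 79.8% lower, with a median of -2.13, so Bub3 lay above the median gene. In neutrophils 33 of 43 were higher and 1, the phosphatase Cdc25b (-1.97), was lower, where 8.61% and 52.9% of all genes were. The highest were Anln (2.77), Cdkn3 (2.46), Gtse1 (2.12) and Cdca3 (1.91) in erythroid cells and Cdkn3 (3.92), Pbk (3.08), Anln (2.89) and Spc25 (2.51) in neutrophils. Of the other replication genes 9 of 38 were higher and 4 lower in erythroid cells, and 3 of 35 were higher and 5 lower in neutrophils, where the share higher is near the 8.61% of all genes, with Orc1 (2.60), a subunit of the origin recognition complex, first in the former and Cdc45 (1.98), a helicase cofactor, first in the latter. Pold1, the catalytic subunit of DNA polymerase delta, was lowest in both, at -1.70 and -1.83. These lie above the median of all genes in erythroid cells (-2.13) and below it in neutrophils (-1.07). In monocytes 19 of 42 other mitotic genes were higher and 1 lower, and 0 of 35 other replication genes were higher and 14 lower, where 14.2% and 22.3% of all genes were. In macrophages 5 of 41 other mitotic genes were higher and 12 lower, shares near the 13.9% and 30.8% of all genes, and 1 of 35 other replication genes was higher and 11 lower.

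Among 22 genes of G1 control compared, the ones past 2-fold differed by cell type. Levels are on totals that include haemoglobin, which takes most erythroid UMIs. The median log2 ratio of all genes compared between erythroid and lymphoid cells was -2.13. E2f8, a repressor of E2F targets, was at 27.3 CPM in erythroid and 38.3 in neutrophil cells against 3.39 in lymphoid cells, and cyclin E2 (Ccne2) at 19.9 and 30.2 against 3.26 CPM. Cyclin E1 (Ccne1) was at 39.4 CPM in erythroid but 10.6 in neutrophil cells. Of the D cyclins, Ccnd2 was at 301 CPM in lymphoid and 275 CPM in macrophage cells and at 23.2, 30.7 and 9.39 CPM in erythroid, neutrophil and monocyte cells. Ccnd3 was at 161 CPM in lymphoid, 60.9 in erythroid, 367 in neutrophil, 295 in monocyte and 37.2 in macrophage cells. Its erythroid log2 ratio of -1.40 lay above the median gene there, and that of Ccnd2, -3.70, lay below it. Ccnd1 was at 169 CPM in macrophages against 5.22 CPM in lymphoid cells. Cdkn1a, the inhibitor p21, was at 87.1 CPM in monocytes against 3.66 CPM in lymphoid cells, the highest ratio of this list there at 4.57. Btg1, an antiproliferative gene of resting lymphocytes, was at 1391 CPM in lymphoid and 28.5 CPM in erythroid cells, the lowest ratio in the erythroid gate at -5.61.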

How the data were processed

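Single-cell 3′ libraries of mouse spleen were sequenced, and the deposited table holds whole-number counts of UMIs for 31017 symbols in 7524 barcodes (46882070 UMIs, at least 500 per barcode), made by the authors against the mm10 reference, version 3.0.0, per the submitters' processing notes; the aligner is not given in the sources used here. Both samples share the table under 1 barcode suffix, no column could be tied to a sample, and all barcodes were treated as 1 sample. No test or p-value is given for that reason. The members and all gene lists were chosen with earlier results of these data known.

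Of the barcodes, 101 had fewer than 200 genes and 857 more than 10% mitochondrial UMIs, and 6588 were kept. Scrublet (in scanpy 1.11.5) called 137 doublets (2.08%), which stayed in. Gates used fixed marker lists, with 11 of 12 erythroid markers, since Ahsp is not a row of the table. UMIs were summed over the cells of a gate and scaled to 1000000. Genes with at least 100 UMIs in the groups compared were called higher or lower past 2-fold. Named genes are the 4 highest and 4 lowest ratios of each list per comparison, with members that stood apart in the share of cells added after their values were seen. Intervals are 95% and a count of 0 was given the limit of 3 counts. Thinning used random seed 1. Haemoglobin bins were cut at 10% and 50%. The steps were tested on simulated counts. Promoter windows are RefSeq's on GRCm38.p6; gene overlaps come from the GENCODE annotation. Python 3.11.15, numpy 2.4.6, scipy 1.17.1, pandas 2.3.3 and matplotlib 3.10.9 were used. In all, 20 alternatives were run, 3 of them chosen after seeing the data.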

Additional observations from a re-analysis of the deposited data

Results flagged for a closer look

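Barcodes outside the gates also carried members, at levels far above the limit that a count of 0 allows. No comparison between cell types uses them, but the check of the phase labels over all kept cells includes them. The 668 barcodes with markers of more than 1 lineage had 914 CPM of replication and 1117 CPM of mitotic members, where 3 UMIs would be 0.583 CPM, and 45 of them were called doublets. The 395 barcodes with too few markers of any lineage had 1614 CPM of replication and 1332 CPM of mitotic members, where 3 UMIs would be 5.80 CPM. Their median depth was 980 UMIs, against 5339 over all kept barcodes.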

How the results depend on the processing

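Of the values that answer a comparison, 232 stayed within counting error or 1.5 times of the value reported, 125 moved and 0 reversed over 20 alternatives; of single members, 1239 stayed, 506 moved and 23 reversed, and 17 of 92 member ratios past 2-fold changed sign in at least 1 alternative. The cause of each move was not tested beyond what the setting itself changes. Depth limits macrophages most, at a median of 770 UMIs. No paired analysis was possible because barcodes are not tied to samples.

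The mitotic-positive share of cells, listed with each cell type's reported value first, depended on the threshold and depth. For erythroid cells (20.6%) it was 36.7% at 1 UMI, 16.4% at 3 UMIs, 27.1% thinned to 2000 UMIs, 76.9% unthinned and 46.0% with at least 500 genes. For lymphoid cells (3.05%) these were 11.6%, 1.99%, 4.76% and 16.2%, with 5.01% at a mitochondrial limit of 5%. For neutrophils (21.7%) they were 36.5%, 15.9%, 31.5% and 48.4%. Monocytes (5.05%) gave 12.1% at 1 UMI, 33.0% unthinned and 0 in the strict gate of 6 UMIs and 90%, and macrophages (11.7%) gave 22.3% at 1 UMI. Without the 5% of cells with the most phase UMIs, an alternative chosen after seeing the data, the share was 0.642% in lymphoid, 1.06% in monocyte and 1.22% in macrophage cells.

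The mitotic share of phase UMIs with Stmn1 and Hmgb2 counted as mitotic was 63.7% in lymphoid, 73.1% in erythroid, 83.9% in neutrophil, 86.0% in monocyte and 62.9% in macrophage cells, 58.9% in B, 53.3% in T, 75.9% in NK and 74.5% in plasma cells, and 64.2%, 73.4% and 93.0% in the haemoglobin-poor, middle and rich bins. In the strict gate it was 72.0% in erythroid, 72.4% in neutrophil, 24.9% in monocyte, 41.6% in B, 20.9% in T, 52.0% in NK and 71.5% in plasma cells, and 65.1% and 95.1% in the middle and rich bins. At the 5% mitochondrial limit it was 51.8% in lymphoid, 73.4% in erythroid, 39.3% in B, 28.9% in T, 50.5% in NK and 72.7% in plasma cells and 71.2% in the middle bin. With at least 500 genes it was 64.9% in erythroid cells and 91.1% in the rich bin. Without the most active 5% it was 24.2% in lymphoid, 71.5% in erythroid, 66.6% in neutrophil, 52.7% in monocyte, 31.8% in macrophage, 24.9% in B, 17.3% in T, 26.4% in NK and 48.3% in plasma cells, and 49.1% and 93.8% in the poor and rich bins. By haemoglobin tertiles it was 64.8%, 94.1% and 95.4%, and without Ube2c and Nusap1, also chosen after seeing the data, 51.0%, 63.9% and 85.8%.

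Counts of members at least 2-fold above lymphoid cells moved as follows, and the share of all genes past 2-fold was not counted under any alternative. Erythroid mitotic members (18) became 10 at the 5% mitochondrial limit, and erythroid replication members (8) became 3 there and in the strict gate, 5 without the most active 5%, 16 with at least 500 genes, and 17 with size factors or without haemoglobin and immunoglobulin. Neutrophil replication members (5) became 11 with size factors and 3 at the 5% limit. Monocyte mitotic members (21) became 0 in the strict gate, 7 at the 5% limit and 2 without the most active 5%; replication members higher (0) became 1 in the strict gate and without the most active 5%, and lower (7) became 3 in the strict gate. Macrophage mitotic members (3) became 5 in the strict gate, 10 as means over cells, 1 at a 20% limit, 0 at a 5% limit and 1 without the most active 5%, and replication members (1) became 4, 3, 0 (20% limit), 0 (without the most active 5%), and 2 with at least 500 genes or size factors. The summed log2 ratio of precursor over mature neutrophils moved from 2.02 to 2.31 with size factors for mitotic members, and from 1.95 to 2.65 without doublets, 4.45 in the strict gate and 3.66 without the most active 5% for replication members.

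For other mitotic genes, erythroid (27) became 15 in the strict gate, 42 with size factors, 41 without haemoglobin and immunoglobulin, 6 at the 5% limit and 8 without the most active 5%; neutrophil (33) became 15 without the most active 5%; monocyte (19) became 0 in the strict gate, 2 at the 5% limit and 1 without the most active 5%; and macrophage (5) became 12 in the strict gate, 9 with at least 500 genes, 13 as means over cells, and 3 at the 5% limit and without the most active 5%. For other replication genes, erythroid (9) became 0 in the strict gate, at the 5% limit and without the most active 5%, 23 with at least 500 genes, 34 with size factors and 33 without haemoglobin and immunoglobulin; neutrophil (3) became 18 with size factors; monocyte (0) became 1 in the strict gate; and macrophage (1) became 4 in the strict gate, 2 with at least 500 genes, 0 at either mitochondrial limit and 3 without the most active 5%.

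Reversed log2 ratios to lymphoid cells were mostly those of monocytes. In the strict gate Aurkb was at -1.51, Birc5 at -1.56, Ccnb2 at -1.53, Cdk1 at -0.88, Cenpf at -2.60, Mki67 at -1.94, Top2a at -1.80, Ube2c at -1.81 and Mcm6 at 0.61. Without the most active 5%, monocyte Aurkb was at -0.37, Ccnb1 at -0.055, Cdc20 at -1.41, Cdk1 at -0.94 and Top2a at -1.23. In macrophages, without the most active 5%, Cdc20 was at 0.30, Cenpe at 1.50, Cenpf at 1.28 and Mki67 at 1.65; Cdc20 was at 0.19 as a mean over cells and Cenpe at 0.32 in the strict gate. Erythroid Dut was at -0.46 at the 5% limit and -0.021 without the most active 5%, and Gins2 at -0.19 at the 5% limit.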
